A study of Mus musculus with 6 samples.

Results

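The neural miRNAs miR-9, miR-124 and miR-218, were followed in exosomes of HN9.10 mouse hippocampal cells. Their members were taken from the count table by gene name in GENCODE M21. They were Mir9-2, Mir9-3, Gm25641, which lies opposite Mir9-1 and stands for it, Mir218-1, Mir218-2 and every name that begins with Mir124. This gave 10 of the 1973 rows, of which 8 belong to the named miRNAs, 3 to miR-9, 3 to miR-124 and 2 to miR-218. The other 2, Mir1247 and Mir1249, share only the beginning of the name with miR-124 and are different miRNAs.

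HN9.10 (also written HN9.10e) is an immortalized line labelled as hippocampal neurons of wild-type genotype, grown in medium with fetal bovine serum. Exosomes were collected from the medium after 48 h, giving 3 libraries without ceramide (control) and 3 with 100 nM ceramide, a sphingolipid. Per the methods, the ceramide was the short-chain C6 form. Small RNA of the exosomes was sequenced, and the comparison asks which miRNAs differed in amount after ceramide. The cells themselves were not sequenced, so a level here is a level in the exosome preparation, and the packing of a miRNA into exosomes cannot be told apart from its amount in the cells. Whether the serum was freed of its own vesicles is not given in the sources used here. The labels number the replicates 1 to 3. The paper speaks of triplicates and of biological replicates. Neither the labels nor the paper says whether the sequenced libraries came from separate cultures, so p-values measure the spread between these libraries.

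Each row of the table counts one hairpin gene, the folded precursor from which a 5p and a 3p miRNA are cut. The seed, bases 2 to 8 of the mature strand, pairs with the target mRNA. miR-9 is made in neural progenitors and young neurons and acts on regulators of progenitor growth, among them Nr2e1 (TLX) and Hes1. miR-124 is the classical neuronal miRNA, which represses non-neuronal transcripts such as Ptbp1 and Sox9 as neurons mature. miR-218 is strong in motor neurons and comes from introns of Slit2 and Slit3, genes of secreted axon guidance proteins, and it acts on the Slit receptor Robo1.

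The mature sequences of miR-9 and miR-218, from RefSeq on GRCm38.p6, are shown because they decide which rows can hold the same reads. They are written 5′ to 3′, with the seed in capitals.
mmu-miR-9-5p: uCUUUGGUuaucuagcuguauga
mmu-miR-9-3p: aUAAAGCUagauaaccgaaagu
mmu-miR-9b-5p: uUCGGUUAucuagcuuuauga
mmu-miR-9b-3p: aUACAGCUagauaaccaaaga
mmu-miR-218-5p: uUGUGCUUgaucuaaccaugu
mmu-miR-218-1-3p: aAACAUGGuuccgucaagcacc
mmu-miR-218-2-3p: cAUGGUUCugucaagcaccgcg
Mir9-1, Mir9-2 and Mir9-3 carry the same miR-9-5p and miR-9-3p. RefSeq gives Gm25641, on the other strand of the Mir9-1 locus, the strands miR-9b-5p and miR-9b-3p. The longest stretch of miR-9-5p that matches the reverse complement of miR-9b-3p was 21 bases, the whole of miR-9b-3p. None of the 7 strands shares its seed with another of them. Mir218-1 and Mir218-2 share the 5p strand and differ in the 3p strand, where their longest common stretch was 10 bases.

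The hairpins of miR-218 are shown in full because their rows differed most, with the longest stretch that they share in capitals.
Mir218-1: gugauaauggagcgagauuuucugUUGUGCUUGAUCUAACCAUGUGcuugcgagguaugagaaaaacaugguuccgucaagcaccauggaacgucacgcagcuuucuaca
Mir218-2: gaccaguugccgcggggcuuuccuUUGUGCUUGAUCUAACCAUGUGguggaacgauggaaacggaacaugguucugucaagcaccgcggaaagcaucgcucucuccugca
The shared stretch is 22 bases long and covers the 5p strand. The bases on either side of it differ, so a 5p read of up to 22 bases can match both hairpins without a mismatch, and a read that runs past it, or a 3p read, fits one of them better. Set position by position without gaps, the hairpins had the same base at 71 of 110 positions.

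In control exosomes miR-218 was the most abundant of these miRNAs, miR-9 was far below it and miR-124 was lowest, and this order held in each of the 6 libraries. Ceramide went with no call among the members. With edgeR's quasi-likelihood test, adjusted by the Benjamini-Hochberg method, none of the 9 members tested reached both an adjusted p of 0.05 or less and a log2 fold change of 0.6 or more in either direction, against 48 of the 418 rows tested (11.5%). One of the 9, Mir218-2, had an unadjusted p of at most 0.05, against 36.6% of the rows tested. DESeq2 and limma-voom, run on the same counts, also called none. Under DESeq2, 1 of the 9 had an unadjusted p of at most 0.05, against 10.6% of its 1058 rows. Those are all rows with a count, many of them outside the 418, so that share is not a like background for the 9. Under limma-voom 4 of the 9 had an unadjusted p of at most 0.05, against 39.5% of the 418 rows. These were Mir218-2 and the 3 rows of miR-124, which hold nearly the same counts. The estimates went in different directions, above 0 for miR-9 and Mir218-2 and below 0 for miR-124 and Mir218-1. The remaining member, Mir1247, had 1 count in ceramide replicate 2 and 0 in the other libraries and was not tested. A count of 0 allows up to 3 counts, which is between 1.28 and 3.75 CPM (the counts-per-million unit) in these libraries.

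The libraries held 972344 to 1393282 counts in the control group and 800810 to 2760015 in the ceramide group. Replicate 1 was the shallowest in both groups. The labels place replicate 1 of both groups in sequencing lane 1, the other control libraries in lane 4 and the other ceramide libraries in lane 2, so beyond replicate 1 the lane and the treatment cannot be told apart. The kit marks molecules, and whether a count is a read or a molecule is not given in the sources used here. Intervals from counts therefore cover counting error only.

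**Figure D1:**
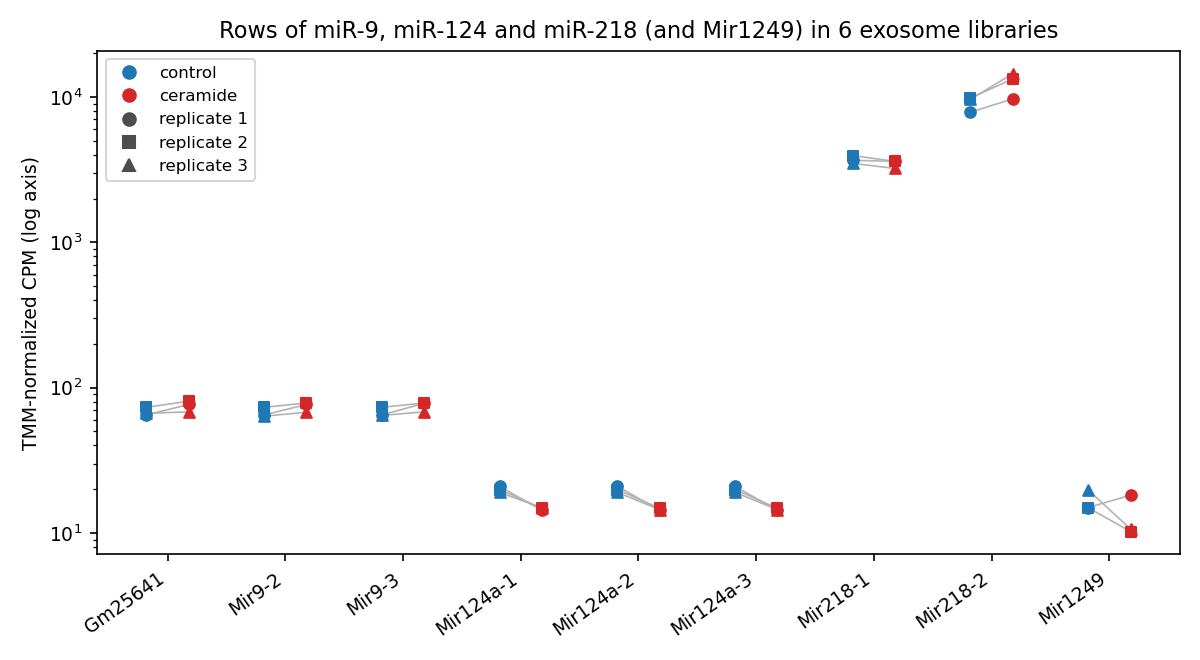
TMM-normalized CPM (log axis) of the 9 tested members in the 6 libraries, blue for control and red for ceramide, with a marker for each replicate number and grey lines joining equal numbers. The miR-218 rows lie between 3223 and 14473 CPM, the miR-9 rows between 63.7 and 80.7 CPM, and the miR-124 rows between 14.3 and 20.96 CPM with all ceramide points below all control points.

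Levels are given as CPM after TMM scaling of the libraries. Since a read spans a whole mature miRNA, counts were not divided by gene length.

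miR-9 was present at a low and even level. Gm25641 (GRCm38 chr3:88215589-88215696, minus strand) lies in an intron of the noncoding RNA Gm3764 and over Mir9-1, both of which are on the plus strand. It had 64.9, 73.2 and 66.6 CPM in control replicates 1, 2 and 3 and 76.7, 80.7 and 68.1 CPM in ceramide replicates 1, 2 and 3. The groups overlap, since ceramide replicate 3 lies below control replicate 2. Mir9-2 lies at chr13:83738814-83738885 in an exon of the noncoding RNA C130071C03Rik, and averaged 67.3 ± 5.21 CPM without ceramide and 74.3 ± 5.75 CPM with it (SD, n = 3 each). Mir9-3 lies at chr7:79505264-79505353 in an intron of Mir9-3hg, and had 67.5 ± 4.97 CPM and 74.8 ± 5.81 CPM (SD, n = 3 each).

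The rows of miR-9 held nearly the same counts. Any 2 of them were identical in 3 of the 6 libraries, and they differed by at most 6 counts, or 4.60%, in the others. Mir9-2 had 65, 103 and 87 counts in the control libraries and 59, 207 and 159 in the ceramide libraries. The rows were therefore read as 1 measurement counted several times, and the reads do not show which locus they came from. Because Gm25641 is on the other strand of Mir9-1 and held the same counts as the plus-strand rows to within those few, reads of miR-9 and of miR-9b cannot be told apart in it.

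The log2 fold change of Mir9-2, ceramide against control, was 0.14 (standard error 0.13, 95% interval -0.17 to 0.44, edgeR quasi-likelihood adjusted p = 0.444). It was 0.14 for Gm25641 and Mir9-3 as well. The difference did not stand out from the spread between libraries in this test, and the interval leaves out the threshold of 0.6 on either side. Each ceramide library was higher than the control library of the same number, by 0.24, 0.10 and 0.09 on the log2 scale for Mir9-2.

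miR-124 was close to the low end of the rows tested. Mir124a-1 lies at chr14:64590657-64590741 in an exon of Mir124a-1hg (all members but Gm25641, Mir1247 and Mir1249 are on the plus strand). Mir124a-2 lies at chr3:17795662-17795770, partly in an exon of Mir124-2hg, and Mir124a-3 at chr2:180894040-180894107, where its end overlaps an exon of the noncoding RNA Gm27032. The counts of Mir124a-2 and Mir124a-3 were identical in each of the 6 libraries, and Mir124a-1 differed from them by 1 count in one library, so these rows too were read as a single measurement.

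Mir124a-1 had 20.96, 19.9 and 19.0 CPM in control replicates 1, 2 and 3, from 21, 28 and 26 counts. It had 14.3, 14.8 and 14.9 CPM in ceramide replicates 1, 2 and 3, from 11, 39 and 35 counts. The highest ceramide value is below the lowest control value. This order held for the 3 rows of miR-124, which were read as one measurement, against 25.1% of all rows tested, and no member lay wholly higher, against 14.1% of all rows.

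The log2 fold change of Mir124a-1 was -0.43 (standard error 0.20, 95% interval -0.90 to 0.03, edgeR quasi-likelihood adjusted p = 0.156), and it was -0.45 for the other 2 rows (edgeR adjusted p = 0.139). The interval holds 0 as well as changes past the threshold, so at this depth neither could be told. The 11 counts of ceramide replicate 1 have an exact Poisson 95% interval of 5.49 to 19.7. When the rows of each miRNA were added up, miR-124 had a log2 fold change of -0.46 and an edgeR quasi-likelihood adjusted p of 0.0427. That sum may hold the same reads up to 3 times and overstates the counts behind it.

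For a miRNA known as neuronal, the level of miR-124 was low. Mir124a-1 ranked 333rd of the 418 rows tested by mean CPM, Gm25641 226th, Mir218-1 50th and Mir218-2 19th. Markers of other sources were also present, some at like levels and some higher. The tested rows of a list of muscle miRNAs averaged between 20.1 and 58.9 CPM in control exosomes, and those of a list of blood and liver miRNAs between 10.97 and 268 CPM. Mir206, a skeletal muscle miRNA, had 20.1 CPM without and 30.2 CPM with ceramide, and Mir223, a myeloid blood cell miRNA, had 20.5 CPM and 31.4 CPM, with no overlap between the groups in either row. They had the largest log2 fold changes of their lists, 0.60 and 0.58. Wholly higher in ceramide were 1 tested row of the muscle list and 3 of the blood and liver list, against 14.1% of all rows. No row of either list was wholly lower, against 25.1% of all rows. The 6 rows of the blood and liver list (Mir122, Mir142b, which lies opposite Mir142, Mir144, Mir223, Mir451a and Mir486) summed to between 402 and 451 CPM of the whole, unscaled count in control and between 373 and 435 CPM in ceramide libraries, with none of the rows at 0. Of the 6, none was called, although Mir223 was with DESeq2's size factors. In 5 the log2 fold change was above 0, and in Mir486, the most abundant of them, it was -0.26. The 6 rows of the muscle list summed to between 178 and 220 CPM and between 196 and 245 CPM, with none at 0. None of the 5 muscle rows tested was called, and 3 had a log2 fold change above 0 and 2 below it, the latter Mir133a-1 and Mir133a-2 at -0.30 each. Those 2 rows held the same counts in each library, and Mir1a-1 and Mir1b, which lies opposite Mir1a-2, held close ones. The muscle rows are therefore not separate measurements, and their sum may hold the same reads more than once. Mir206 was called with DESeq2's size factors, upper-quartile factors and limma-voom and without ceramide replicate 1. Whether serum gave part of the miR-124 counts was not tested.

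miR-218 was among the abundant miRNAs of these exosomes, and its 2 rows gave unlike values. Mir218-1, at chr5:48223942-48224051 in an intron of Slit2, took between 0.363% and 0.399% of all counts in control libraries and between 0.322% and 0.347% in ceramide libraries. Mir218-2, at chr11:35616816-35616925 in an intron of Slit3, took between 0.810% and 1.00% in control libraries and between 0.933% and 1.45% in ceramide libraries.

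Mir218-1 had 3662, 3954 and 3492 CPM in control replicates 1, 2 and 3 and 3611, 3603 and 3223 CPM in ceramide replicates 1, 2 and 3. The groups overlap. Its log2 fold change was -0.09 (standard error 0.09, 95% interval -0.30 to 0.12, edgeR quasi-likelihood adjusted p = 0.461), and the interval lies inside the threshold. Within replicate numbers the differences were -0.02, -0.13 and -0.12 on the log2 scale, lower in each of the 3. With the replicate number as a block, its log2 fold change was -0.09 (standard error 0.06, edgeR quasi-likelihood adjusted p = 0.242).

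Mir218-2 had 7858, 9848 and 9632 CPM in control replicates 1, 2 and 3 and 9709, 13303 and 14473 CPM in ceramide replicates 1, 2 and 3. Ceramide replicates 2 and 3 lie above all controls, while ceramide replicate 1 lies between control replicates 3 and 2, so the groups overlap. Its log2 fold change was 0.46 (standard error 0.16, 95% interval 0.07 to 0.84, edgeR quasi-likelihood adjusted p = 0.0946), which did not pass.

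Within replicate numbers the excess of Mir218-2 in ceramide was 0.31, 0.43 and 0.59 on the log2 scale for replicates 1, 2 and 3. With the replicate number as a block, the log2 fold change of Mir218-2 was 0.44 (standard error 0.06, 95% interval 0.29 to 0.60, edgeR quasi-likelihood adjusted p = 0.0035). It then passed the threshold on p but not that on fold, so it was still not called. In that fit 87 of the 418 rows tested (20.8%) passed both thresholds, so at least that share passed on p. The pairing behind this block was read from these same data. The edgeR adjusted p of Mir218-2 also passed without ceramide replicate 1, at 0.0194, with a log2 fold change of 0.59. There, 55 of 448 rows tested passed both thresholds. The other members did not reach an adjusted p of 0.05 with the block.

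**Figure D2:**
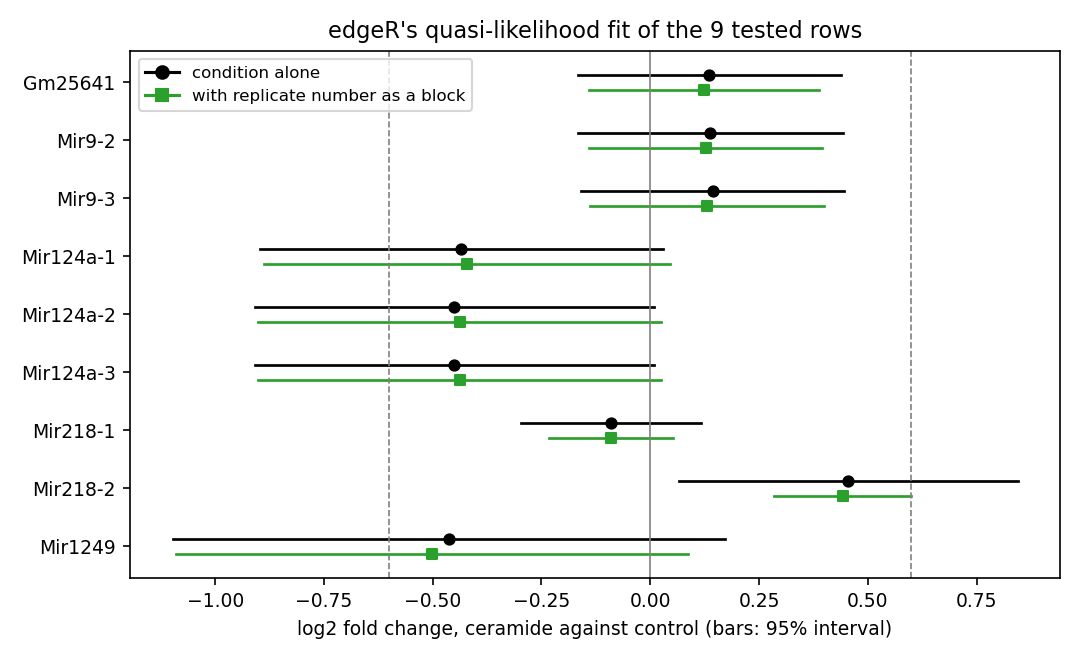
Log2 fold change of the 9 tested members, ceramide against control, with 95% intervals as bars, from edgeR's fit with condition alone (black) and with the replicate number as a block (green). Dashed lines mark the threshold of 0.6, which no estimate passes, and only Mir218-2 has an interval above 0 in both fits.

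The rows of miR-218 were then set against each other within each library, where no scaling of libraries enters. This comparison was chosen after their values had been seen. Counts of Mir218-2 were 2.15, 2.49 and 2.76 times those of Mir218-1 in control replicates 1, 2 and 3, and 2.69, 3.69 and 4.49 times in ceramide replicates 1, 2 and 3. The ratio was higher in ceramide within each of the 3 replicate numbers, while the groups overlap in ceramide replicate 1 and control replicate 3. On the log2 scale the mean ratio was 1.29 ± 0.18 in control and 1.83 ± 0.37 in ceramide libraries (SD, n = 3 each), a difference of 0.53 (two-sided exact permutation p = 0.2, adjusted over 4 ratios p = 0.267). No p under 0.1 can come from 3 libraries against 3. Taken as differences within replicate numbers, the exact sign-flip test gave p = 0.25, the lowest possible with 3 pairs.

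Expressed as counts, Mir218-2 exceeded Mir218-1 by 4204, 8290 and 8391 in control replicates 1, 2 and 3, which is 0.432%, 0.595% and 0.639% of the library. The excess was 4693, 25611 and 26426 counts in ceramide replicates 1, 2 and 3, or 0.586%, 0.928% and 1.12%. Reads counted on both rows cancel in this difference, which leaves reads of Mir218-2 alone minus reads of Mir218-1 alone. The counts do not tell whether these were longer 5p reads or 3p reads, or how far either part changed. The ratio was highest in the 2 deepest libraries, with 2760015 and 2351342 counts, both of ceramide and both of lane 2. In lane 1, where the libraries had 972344 and 800810 counts, it was 2.15 in control and 2.69 in ceramide. The part of depth and lane in the ratio was not tested beyond this pair.

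**Figure D3:**
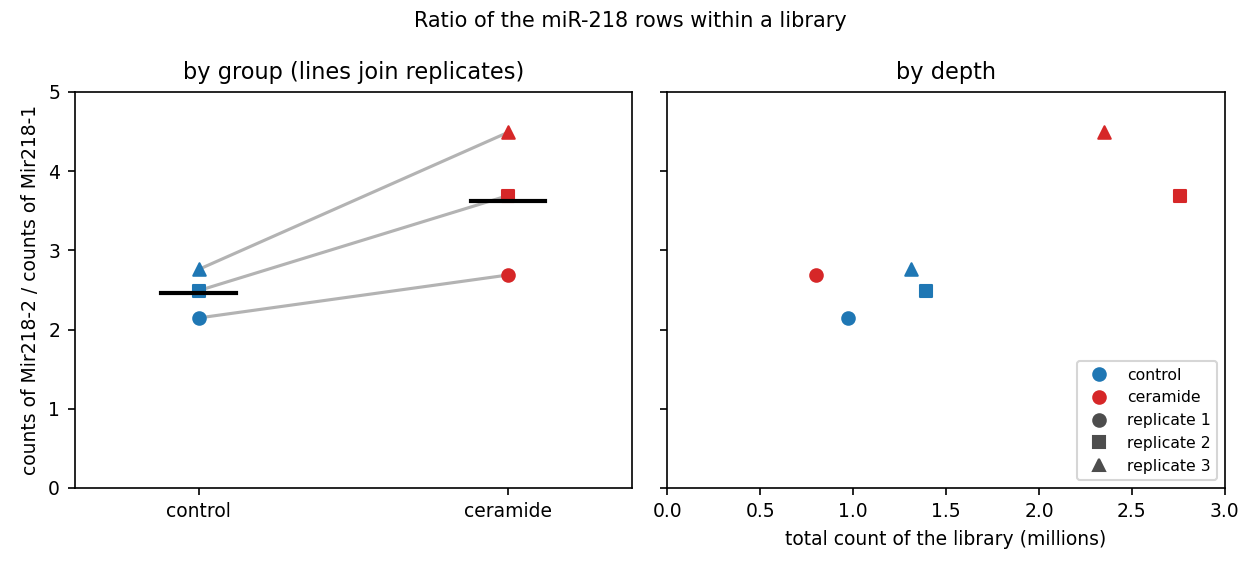
Counts of Mir218-2 divided by counts of Mir218-1 in each library, by group with the mean as a black bar and lines joining replicate numbers (left), and against the total count of the library (right). The 3 lines slope upward, from 2.15 to 2.69, from 2.49 to 3.69 and from 2.76 to 4.49, and the 2 highest ratios belong to the 2 deepest libraries.

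The miRNAs were also compared with each other within libraries, with their rows added up. The ratio of miR-124 to miR-218 had a log2 mean of -7.73 ± 0.19 in control and -8.49 ± 0.21 in ceramide libraries (SD, n = 3 each). The difference of -0.76 was seen in each of the 3 replicate numbers, and the groups do not overlap (two-sided exact permutation p = 0.1, which is the lowest possible, adjusted over 4 ratios p = 0.2). The ratio of miR-9 to miR-124 was higher in ceramide in 3 of 3 replicate numbers, with log2 means of 1.75 ± 0.13 and 2.35 ± 0.12 (SD, n = 3 each), and the groups do not overlap either (two-sided exact permutation p = 0.1, adjusted over 4 ratios p = 0.2). The ratio of miR-9 to miR-218 differed by -0.17 on the log2 scale, with overlapping groups (two-sided exact permutation p = 0.5, adjusted over 4 ratios p = 0.5). These ratios share their terms and are not independent of each other, and none passed the adjustment. The miR-218 sum joins rows that went in different directions, Mir218-2 at 0.46 and Mir218-1 at -0.09, and Mir218-2 holds most of its counts. Both ratios to miR-218 therefore depend on the row used. With the row of the most counts of each miRNA, the differences were -0.31 for miR-9 and -0.88 for miR-124 to miR-218. Ratios to Mir218-1 alone were not tested.

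Mir1249, which is unrelated to miR-124, lies at chr15:84951526-84951623 in an exon of 5031439G07Rik. It had 15.0, 14.9 and 19.8 CPM in control replicates 1, 2 and 3 and 18.2, 10.2 and 10.6 CPM in ceramide replicates 1, 2 and 3. Its groups overlap, and its log2 fold change was -0.46 (standard error 0.27, 95% interval -1.10 to 0.17, edgeR quasi-likelihood adjusted p = 0.253). Ceramide replicate 1 alone lies above the control library of its number. Mir1247, at chr12:110278048-110278129 in an exon of Dio3os, gave the single count already named.

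**Figure D4:**
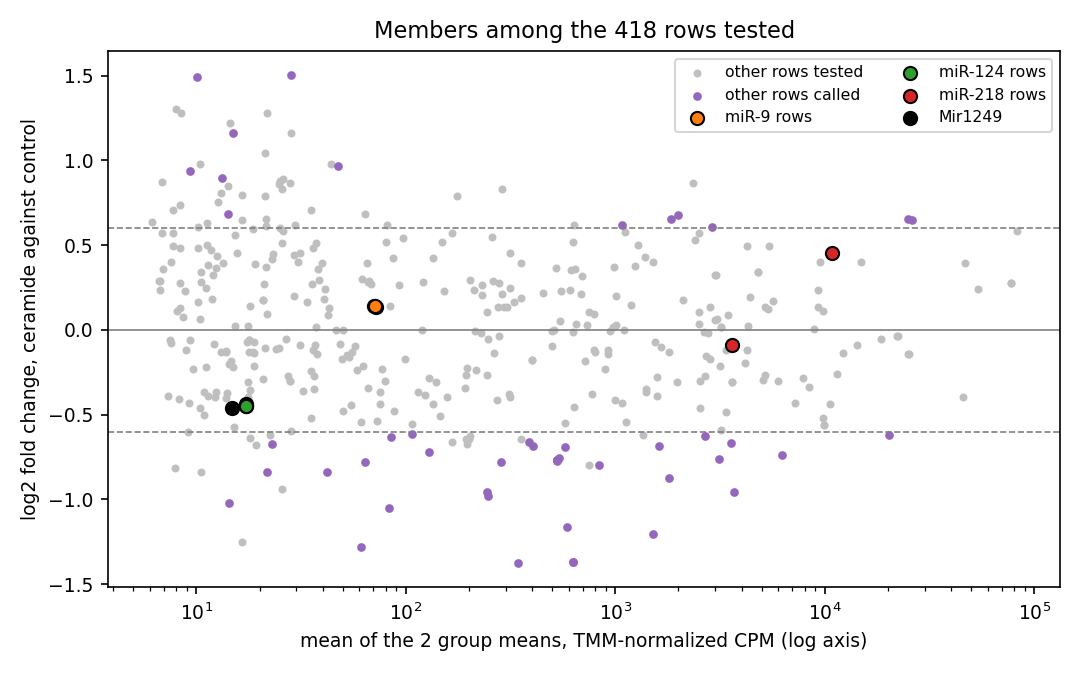
Log2 fold change against mean TMM-normalized CPM (log axis) for the 418 rows tested, with the rows of miR-9, miR-124 and miR-218 and Mir1249 as large points and the 48 called rows in purple. The members lie between -0.46 and 0.46, inside the dashed lines at the threshold, and Mir218-2 is the most abundant of them.

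Other neuronal and neurogenic miRNAs were read from the same fit. Of 25 listed rows 21 were tested, and 3 were called, all lower in ceramide, against 11.5% of all rows. Of the 21, 6 had a log2 fold change above 0 and 15 below it, with a median of -0.14, against -0.01 for all rows tested. The groups did not overlap in 9 of them, 5 lower and 4 higher in ceramide, against 25.1% lower and 14.1% higher of all rows tested. The 4 were Mir7-1 and Mir7-2 (0.32 each), Mir137 (0.24) and Mir219a-2 (0.61), named here after their values were seen. None of them was called, and Mir7-1 and Mir7-2 held nearly the same counts in each library. Mir138-1, whose miRNA limits dendritic spine size, had 3930 ± 511 CPM without ceramide and 2315 ± 214 CPM with it (SD, n = 3 each) and fell by 0.76 on the log2 scale (edgeR quasi-likelihood adjusted p = 0.0053). Mir128-2, of a brain-enriched miRNA, went from 358 ± 19.6 CPM to 209 ± 9.72 CPM and fell by 0.78 on the log2 scale (edgeR adjusted p = 0.0026). Mir153, of a miRNA that acts on synuclein and synaptic transcripts, fell by 0.84 on the log2 scale, from 27.5 ± 2.27 CPM to 15.9 ± 2.48 CPM (edgeR adjusted p = 0.0189). The call of Mir153 was lost with DESeq2, with the lane as a term and without control replicate 1, 2 or 3 or ceramide replicate 2. That of Mir128-2 was lost with the lane as a term. With that term the comparison rests on the libraries of lane 1, so a lost call there cannot tell a lane effect from fewer libraries.

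The 3 listed rows with the most counts were not called. Mir125b-1 and Mir125b-2, of the lin-4 homolog miR-125b, had log2 fold changes of -0.14 each (edgeR quasi-likelihood adjusted p = 0.282). Their counts were nearly the same in each library. Mir138-2 had one of -0.21 (edgeR adjusted p = 0.255), although its hairpin gives the same miR-138-5p as Mir138-1. With the replicate number as a block, 1 row of the list was called higher and 3 lower, against 87 of all 418 rows (20.8%). Oligodendrocyte miRNAs were present as well. Of these, Mir219a-1 and Mir219a-2 are also in the neuronal list. In control exosomes Mir219a-1 was at 36.9 CPM, Mir219a-2 at 7.99 CPM and Mir338 at 160 CPM. Mir338 was called lower in ceramide (log2 fold change -0.72, edgeR adjusted p = 0.012). That call was lost with the lane as a term, which rests on the libraries of lane 1, without control replicate 1 and without ceramide replicate 2.

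The rows whose log2 CPM followed the members most closely over the 6 libraries were found by Pearson's correlation among the 418 rows tested. These are descriptions over libraries that share a scaling and differ in depth and group. For Gm25641 they were Mir190b (r = 0.95), Mir203 (r = 0.94) and Mir429 (r = 0.94), none of them called. For Mir124a-1 they were Mir880 (r = 0.99), Mir361 (r = 0.99) and Mir34c (r = 0.99). Mir880 and Mir361 were called lower in ceramide, by log2 fold changes of -1.16 and -0.95, and Mir34c, at -0.59, missed the fold threshold. For Mir218-2 they were Mirlet7i (r = 0.98), Mir6963 (r = 0.97) and Mir652 (r = 0.96), with log2 fold changes of 0.40, 0.98 and 0.45, none of them called. Of these, Mir652 passed the threshold on p (edgeR quasi-likelihood adjusted p = 0.0488) and missed that on fold.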

How the data were processed

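Small RNA libraries of exosomes from 3 control and 3 ceramide samples were analysed. Adapters had been trimmed with Cutadapt 1.15, and STAR 2.5.3a had placed the reads on GRCm38. For the counts per GENCODE gene the paper names STAR's TranscriptomeSAM and GeneCounts modes. The authors deposited these raw counts. The GENCODE release and the treatment of strand, of reads with several places and of molecular identifiers are not given in the sources used here. Mir124a-2 and Mir124a-3 had identical counts in all 6 libraries, so reads with several places were counted on more than one row. Names and coordinates came from GENCODE M21, matched by 1894 of the 1973 rows.

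Counts were tested with edgeR 4.0.16 in R 4.3.3 (glmQLFTest, TMM factors, filterByExpr, condition as the term, 6 libraries), and 418 rows were kept. A call needed a p of at most 0.05 after Benjamini-Hochberg adjustment over those rows and a log2 fold change of 0.6 or more either way, the thresholds of the study. Standard errors and 95% intervals of log2 fold changes are those that give the p of the test. Ratios of rows added 0.5 to each side. DESeq2 1.42.0, limma-voom (limma 3.58.1), other scalings, no filter, the lane, a replicate block and leaving out each library were alternatives. The code was tested on simulated data.

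The labels do not say that a replicate number marks a shared experiment. Deviations from the group means, correlated over the 418 rows, gave 0.59, 0.43 and 0.75 for equal numbers. The block takes the numbers as pairs on this ground, which comes from the same data as the fits. Across unequal numbers the correlations lay between -0.59 and 0.10. Deviations within a group cancel out, so high values for equal numbers push these values down. Replicate 1 of both groups also shares a lane and the lowest depth, so the correlations do not show a shared experiment.

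Every member is named, with the 3 rows most correlated with the leading tested row of each miRNA, and from the neuronal list the called rows and the 3 with the most counts. Members and lists were chosen with earlier results of these data known. RefSeq sequences matched 7 of the 10 members.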

Additional observations from a re-analysis of the deposited data

How the results depend on the processing

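No member was called under any of the alternatives, and the direction of each member was kept in all of them except that of Mir1249, whose log2 fold change was 0.28 with the lane as a term, which rests on the libraries of lane 1. The log2 fold change lay between 0.06 and 0.24 for Mir9-2, between -0.55 and -0.36 for Mir124a-1, between -0.17 and -0.02 for Mir218-1 and between 0.31 and 0.59 for Mir218-2, each over 15 alternatives, including one chosen after seeing the data that left out the libraries of lane 1. The adjusted p of Mir218-2 ranged from 0.0035 with the replicate block to 0.28 without control replicate 1, both from edgeR's quasi-likelihood test. For the ratios within libraries, the block gives the same difference by construction, since each number holds a library of either group, so it is no check on them. With one library left out, the difference of the log2 ratio of Mir218-2 to Mir218-1 lay between 0.36 and 0.73, and that of miR-9 to miR-218 between -0.32 and -0.02. The latter used the miR-218 rows added up, and its sign against Mir218-1 alone was not tested.

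Over all rows, 87 were called with the replicate block (38 higher, 49 lower), 29 with the lane as a term, 83 with no fold threshold and 28 to 55 with one library left out, against 48 (13 higher, 35 lower). The split was 21 higher and 26 lower with DESeq2's size factors, 23 and 28 with upper-quartile factors and 4 and 42 with library size alone. Depth limits Mir1247, which had 1 count in all, Mir1249, with 14 to 27 counts a library, and miR-124, with 11 to 39.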
